A study of Mus musculus with 12 samples.

Results

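The S100 proteins are small calcium-binding proteins, and 10 of their genes are described here: S100a1, S100a4, S100a6, S100a8, S100a9, S100a10, S100a11, S100a13, S100a16 and S100b. They were taken by name, each read by its brightest probe that names that gene alone, from 19902 genes with such a probe. The family was chosen by the log2 difference of S100a1 between the constructs, which had been seen to be among the largest. Levels and differences between constructs are therefore given for the 10 genes as a description. The count of those past the threshold of the fit is printed once beside the share of all genes, and nothing is read from it.

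S100 proteins pair up as dimers, and each subunit carries a pair of EF hands, the helix-loop-helix motif that holds a calcium ion. When calcium rises most of them expose a surface that docks onto a target protein, so they act as sensors rather than as enzymes. Some are also released from cells, where they act on receptors such as RAGE and TLR4. In the retina S100b is known as a protein of astrocytes and Müller glia, while S100a8 and S100a9 are known from neutrophils and monocytes.

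Expression was measured on 12 Affymetrix mouse arrays with RNA from fluorescence-sorted cones of C3H/HeNCrl mice. All groups carried rd1, a mutation of the rod gene Pde6b that kills rods early and leaves cones that lose their light response. All groups had also received an adeno-associated virus under the retina between the ages of 21 and 28 days, with a transgene behind the promoter of mouse cone arrestin. The control transgene, EGFP, was carried by 8 samples of 500 cells, 4 taken at 110 days of age and 4 at 220 days. The other 4 samples, of 300 cells at 165 days, expressed eNpHR-EYFP, in which a pump that brings chloride into the cell under light is joined to a yellow fluorescent protein. The labels call the samples biological replicates, and the sources used here do not give how many animals stood behind each. Construct, age and number of sorted cells cannot be told apart between the eNpHR-EYFP and the EGFP arrays, and in sorted samples fewer cells of a type and less RNA per cell cannot be told apart either.

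Levels are log2 of the deposited intensity. They compare arrays for 1 probe and do not rank different genes. The array medians lay between 2.72 and 2.83, and a probe at or below them is called dim here, since whether it stands above background is unknown. Bright probes did not share 1 scale in this way. For eNpHR-EYFP, the 95th percentile of intensity lay between 173.23 and 185.96. Every EGFP array stayed below this, between 114.7 and 134.86. Differences as fitted were not adjusted for it, and quantile normalization was run as an alternative. The cause of this shift was not tested. Cone genes were bright on most arrays, with the summed intensity of 20 such genes at 924.9 to 8780 at 110 days, 2480 to 5031 at 220 days and 4699 to 13912 with eNpHR-EYFP. Their mean log2 level was lowest on replicates 1 and 4 of 110 days, at 4.42 and 4.69, against 5.21 to 7.24 on the other 10 arrays. Genes of other retinal cells were also present in the sorts, among them the glial genes Clu and Glul. Precision is limited by the number of arrays, 4 in each group.

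S100a1 encodes the family member best known from heart and skeletal muscle, where it binds the ryanodine receptor and the calcium pump of the sarcoplasmic reticulum. Its log2 level was 3.72, 4.65, 4.77 and 4.20 on the 4 arrays of 110 days, and 4.26, 4.36, 4.39 and 4.13 on those of 220 days. With eNpHR-EYFP it was 6.48, 6.55, 6.40 and 7.07. Every eNpHR-EYFP array thus lay above every EGFP array, with a gap of 1.63 between the closest pair. The log2 difference between eNpHR-EYFP and the mean of both EGFP ages was 2.31 ± 0.19 (SE, n = 4 against 8), or 4.97-fold. After quantile normalization of the 12 arrays it was 1.94, and without the 2 arrays lowest in the cone arrestin gene Arr3 (replicates 1 and 4 of 110 days) it was 2.13.

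Levels of cone genes differed among the arrays beside S100a1. At 110 days it was higher on replicates 2 and 3, which had the higher mean level of cone genes (6.12 and 6.59), than on replicates 1 and 4. Over the 12 arrays, the deviations of S100a1 and of the cone gene mean from their group means had a Pearson r of 0.798 (exact permutation p = 0.043 within groups, two-sided, and 0.159 after Benjamini-Hochberg adjustment over 20 relations). Spearman's rho was 0.636 (exact permutation p = 0.113, adjusted 0.322), and r without the 2 arrays farthest from the median was 0.603. With the mean of the Müller glia and astrocyte genes described further on, r was -0.712 (exact permutation p = 0.0476, adjusted 0.159). It was -0.731 without the 2 arrays farthest from the median of that mean. Spearman's rho was -0.608 (exact permutation p = 0.0964, adjusted 0.322). Neither relation passed after adjustment. The cone gene mean was 6.35, 6.01, 6.96 and 7.24 on the eNpHR-EYFP arrays and ran from 4.42 to 6.59 on the EGFP arrays. The part of cone or glial genes in the difference of S100a1 was not tested.

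S100a13 encodes a protein known for its part in the release of FGF1 and interleukin 1 alpha, which leave cells without a signal peptide. It is the direct neighbour of S100a1. Its log2 level was 5.04, 4.94, 4.96 and 5.38 at 110 days, 4.73, 4.71, 5.29 and 4.82 at 220 days, and 4.37, 4.09, 3.79 and 4.05 with eNpHR-EYFP. All 4 eNpHR-EYFP arrays lay below all 8 EGFP arrays, with a gap of 0.33. The log2 difference was -0.91 ± 0.14 (SE, n = 4 against 8). The neighbours thus differed between the constructs in opposite directions. Against its own mean over the 8 EGFP arrays, S100a1 stood 2.17, 2.24, 2.09 and 2.76 higher on the eNpHR-EYFP arrays. S100a13 stood at -0.61, -0.90, -1.20 and -0.93 against its own mean on the same arrays. Within groups no such opposition was seen. The deviations of both genes from their group means had a Pearson r of -0.081 (exact permutation p = 0.794, two-sided, adjusted 0.893 over 45 pairs of members). Spearman's rho was 0.035 (exact permutation p = 0.921, adjusted 0.964).

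**Figure D1:**
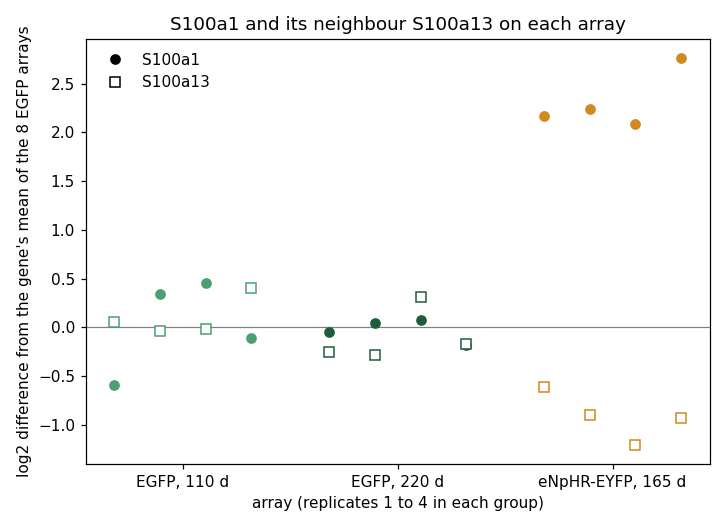
The log2 level of S100a1 (filled circles) and S100a13 (open squares) on each of the 12 arrays is plotted as the difference from the same gene's mean over the 8 EGFP arrays, which the line at 0 marks. On the 4 eNpHR-EYFP arrays S100a1 lies between 2.09 and 2.76 and S100a13 between -1.20 and -0.61.

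In the RefSeq annotation of GRCm38.p6, S100a1 and S100a13 point away from each other, and the promoter windows of both genes (250 bases before to 50 after a start) share 204 bases. The 104 bases between these starts, chr3:90514331-90514434, are shown because the opposite differences fall on either side of them. Any part of this stretch in either difference was not tested. They are printed on the minus strand, which is the coding strand of S100a1, so that transcription of S100a1 begins just after the last base and that of S100a13 goes the other way from the first base. The second line holds the 250 bases before the start of S100a4, chr3:90603520-90603769 on the plus strand, as another member that was lower with eNpHR-EYFP. Capitals mark TATAAA, the letters of a TATA box.
S100a1 and S100a13: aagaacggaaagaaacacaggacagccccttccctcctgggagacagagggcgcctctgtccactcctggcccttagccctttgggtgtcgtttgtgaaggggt
S100a4: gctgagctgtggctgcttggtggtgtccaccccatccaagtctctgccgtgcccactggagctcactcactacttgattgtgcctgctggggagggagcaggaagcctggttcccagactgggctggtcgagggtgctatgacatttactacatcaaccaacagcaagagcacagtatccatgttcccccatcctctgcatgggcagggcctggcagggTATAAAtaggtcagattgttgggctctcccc

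Promoter windows of 300 bases were at hand for 9 of the 10 genes, all but S100a10, with 10 windows in all since S100a16 has more than 1 start. Both strands were searched for TATAAA, the TATA box, for GGGCGG, the GC box, and for TAATCC, a core that photoreceptor homeodomain factors such as CRX bind. None of these motifs contains another. The TATA box was in 3 of the 10 windows, those of S100a4, S100a8 and S100a9, and in 13.6% of all 32851 windows. The GC box was in 3 windows, of S100a9, S100a11 and S100a16, and in 35.7% of all. TAATCC was in 0 of the 10 windows and in 7.06% of all. The stretch between S100a1 and S100a13 held none of the 3 motifs, and 58.7% of its bases were G or C, against a median of 52.7% over all windows. These are matches of letters only.

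S100a4 encodes a protein of fibroblasts, macrophages and migrating cells that binds non-muscle myosin. Its log2 level was 3.83, 4.27, 3.38 and 4.44 at 110 days, 3.09, 3.09, 3.36 and 4.02 at 220 days, and 2.74, 3.05, 2.46 and 2.89 with eNpHR-EYFP. The EGFP ages overlapped, and the eNpHR-EYFP arrays lay below all EGFP arrays by a gap of only 0.03, with 2 of the 4 dim. The log2 difference between constructs was -0.90 ± 0.22 (SE, n = 4 against 8), being -1.19 against 110 days and -0.60 against 220 days. S100a4 also had the largest difference between the ages of the 10 genes, described further on. Markers of endothelium, pericytes and fibroblasts had a summed intensity of 123 to 153 at 110 days, 130 to 140.0 at 220 days and 119 to 135 with eNpHR-EYFP over 18 genes, of which 8 were dim on all arrays. Between constructs 1 rose, 1 fell and 16 did not pass by limma, where 23.0% of all genes were called higher and 10.1% lower. Microglia and macrophage markers had a summed intensity of 126 to 141, 114 to 129 and 132 to 150.2 in the same groups over 19 genes, of which 6 were dim on all arrays, P2ry12 and Aif1 among them. Of these, 7 rose, 1 fell and 11 did not pass, with a median log2 difference of 0.16, and 3 to 6 rose when any 1 array was left out (3 without replicate 2 of 220 days). The part of either list in the result was not tested.

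S100a10, also called p11, has lost the ability to bind calcium and is known as the partner of annexin A2 and as a carrier of membrane proteins, such as the serotonin receptor of Htr1b, to the cell surface. Its log2 level was 2.77, 2.81, 2.32 and 2.56 at 110 days, 3.02, 2.85, 2.43 and 3.12 at 220 days, and 4.06, 3.26, 3.22 and 3.32 with eNpHR-EYFP. All eNpHR-EYFP arrays lay above all EGFP arrays, by a gap of 0.10, and replicate 1 was the highest. The log2 difference was 0.73 ± 0.18 (SE, n = 4 against 8) and 0.53 without that replicate. The EGFP levels lay near the array medians. Replicate 1 also had the highest mean level of the glial genes described next, at 5.67. The deviations of S100a10 had a Pearson r of 0.723 with those of the glial mean (exact permutation p = 0.0182 within groups, two-sided, adjusted 0.121 over 20 relations) and 0.448 without the 2 arrays farthest from the median. Spearman's rho was 0.58 (exact permutation p = 0.0713, adjusted 0.322), so the relation did not pass, and its part in the difference was not tested.

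S100a16 and S100a6 varied most within the eNpHR-EYFP group. S100a16, which encodes a widely expressed member with weak calcium binding, stood at 5.33, 4.71, 4.22 and 4.71 at 110 days, 4.89, 5.01, 5.11 and 5.32 at 220 days, and 6.50, 5.90, 5.01 and 5.01 with eNpHR-EYFP. S100a6, which encodes calcyclin, stood at 5.11, 4.98, 4.36 and 4.64, then at 3.98, 3.93, 4.36 and 5.13, and with eNpHR-EYFP at 5.40, 4.90, 3.41 and 3.36. For both genes eNpHR-EYFP replicates 1 and 2 were high and replicates 3 and 4 low, and the groups overlapped. The log2 difference between constructs was 0.69 ± 0.28 for S100a16 (0.40 without eNpHR-EYFP replicate 1, 0.35 after quantile normalization) and -0.29 ± 0.39 for S100a6. The sign for S100a6 rested on single arrays, with 0.01 without eNpHR-EYFP replicate 4 and -0.67 without replicate 1.

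The deviations of S100a6 and S100a16 from their group means went together over the 12 arrays, with a Pearson r of 0.914 (exact permutation p = 0.000434 within groups, two-sided, and 0.0195 after adjustment over the 45 pairs of members) and a Spearman rho of 0.942 (exact permutation p = 0.000579, adjusted 0.026). Without the 2 arrays farthest from the median r was 0.917. This was the only one of the 45 pairs to pass by either measure.

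Müller glia and astrocyte genes went with both by Pearson correlation but not by ranks. The mean log2 level of 22 such genes was 5.67 and 5.19 on eNpHR-EYFP replicates 1 and 2, and 4.85 and 4.74 on replicates 3 and 4, while it ran from 4.24 to 5.06 at 110 days and from 4.75 to 4.98 at 220 days. Their summed intensity was 1118 to 1951, 1557.5 to 1836 and 2198 to 4807 in the same groups, and 2 were dim on all arrays. The deviations of S100a16 had a Pearson r of 0.939 with those of the glial mean and those of S100a6 an r of 0.796 (exact permutation p = 0.00376 and 0.00485 within groups, two-sided, each 0.0485 after adjustment over 20 relations). Spearman's rho was 0.76 and 0.72 (exact permutation p = 0.0315 and 0.0329, each adjusted 0.322), so neither relation passed by ranks. Without the 2 arrays farthest from the median r was 0.892 for S100a16 and 0.711 for S100a6. At 220 days the order differed, with glial means of 4.98, 4.75, 4.85 and 4.95 on replicates 1 to 4 beside S100a16 at 4.89, 5.01, 5.11 and 5.32. The other 18 relations of members with glial or cone genes did not pass. Between constructs 4 of the 22 glial genes rose, 0 fell and 18 did not pass by limma with Benjamini-Hochberg adjustment, where 23.0% of all genes were called higher and 10.1% lower.

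**Figure D2:**
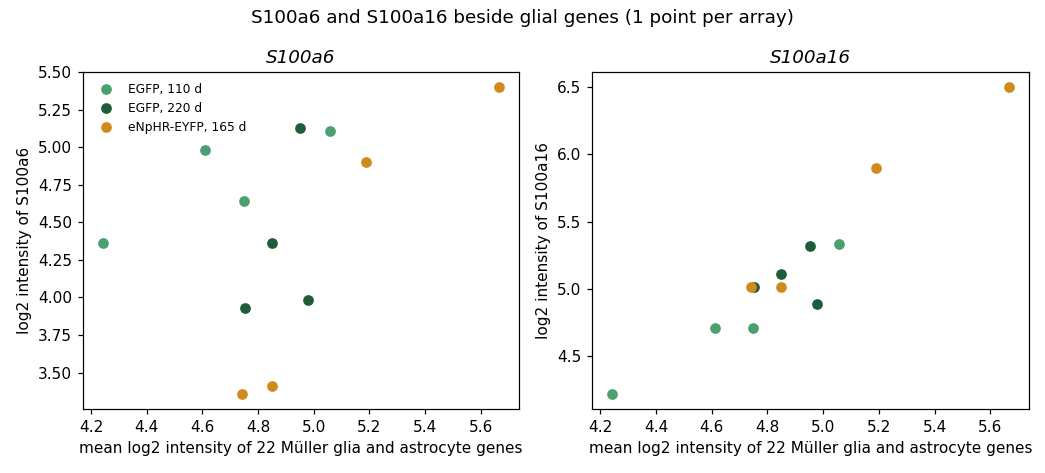
The log2 level of S100a6 (left) and S100a16 (right) on each array is plotted against the mean log2 level of 22 Müller glia and astrocyte genes on the same array, with 1 point per array and colours for the 3 groups. The eNpHR-EYFP arrays with glial means of 5.67 and 5.19 have S100a16 at 6.50 and 5.90, and those with 4.85 and 4.74 have it at 5.01.

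S100b encodes the S100 protein used most often as a marker of astrocytes, but its probe was dim. Its log2 level ran from 2.0 to 2.56 at 110 days, from 2.26 to 2.58 at 220 days and from 2.07 to 2.98 with eNpHR-EYFP, and it was above the array median on 1 of 12 arrays. That array was eNpHR-EYFP replicate 1, which also had the highest glial mean. The groups overlapped, with a log2 difference between constructs of 0.10 ± 0.16 (SE, n = 4 against 8) and a sign that rested on single arrays (-0.07 to 0.24 without 1 array).

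S100a8 and S100a9 encode the calgranulins, which neutrophils hold in large amounts as a heterodimer and which act on TLR4 and RAGE when released. S100a8 was dim on all 12 arrays, at 2.07, 1.77, 1.77 and 1.93 at 110 days, 1.81, 1.85, 1.85 and 1.93 at 220 days, and 2.51, 2.14, 2.23 and 2.20 with eNpHR-EYFP. The eNpHR-EYFP arrays lay above the EGFP arrays by a gap of 0.07, with a log2 difference of 0.40 ± 0.09 (SE, n = 4 against 8). S100a9 ran from 2.38 to 2.77 at 110 days, 2.41 to 2.54 at 220 days and 2.43 to 2.91 with eNpHR-EYFP, and these groups overlapped (difference 0.12 ± 0.11).

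Of 23 neutrophil and monocyte markers measured, 16 were dim on all 12 arrays, among them Ly6g, Elane, Mpo, Ltf and Ngp, and the summed intensity of the 23 was 122 to 127 at 110 days, 122 to 139 at 220 days and 121 to 124 with eNpHR-EYFP. Between constructs 3 rose, 2 fell and 18 did not pass by limma, against 23.0% of all genes higher and 10.1% lower. Without eNpHR-EYFP replicate 2 none rose and 2 fell, and without replicate 1 there was 1 that rose and 2 that fell. Their part in the levels of S100a8 and S100a9 was not tested.

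S100a11 encodes a partner of annexin A1, and its 2 probes disagreed. The brighter probe, 10457640, stood at 4.02, 4.36, 4.13 and 4.21 at 110 days, 3.92, 4.04, 4.12 and 3.73 at 220 days, and 3.34, 3.28, 3.28 and 4.25 with eNpHR-EYFP. Replicate 4 of eNpHR-EYFP thus lay among the EGFP arrays and the other 3 below them, with a log2 difference of -0.53 ± 0.17 (SE, n = 4 against 8), or -0.77 without that replicate. The other probe, 10493990, ran from 3.36 to 3.73 on the EGFP arrays and from 3.61 to 4.08 with eNpHR-EYFP, a difference of 0.29 ± 0.10. The mean of both differed by -0.12. RefSeq lists a pseudogene of S100a11 on another chromosome. The number of probe 10493990 lies close to that of the S100a10 probe, 10493995, and S100a10 is the neighbour of S100a11 in RefSeq. That of the brighter probe, 10457640, lies far from it. Which transcript each probe reads was not tested, so no direction is drawn for S100a11. The gene is counted further on by its brighter probe.

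**Figure D3:**
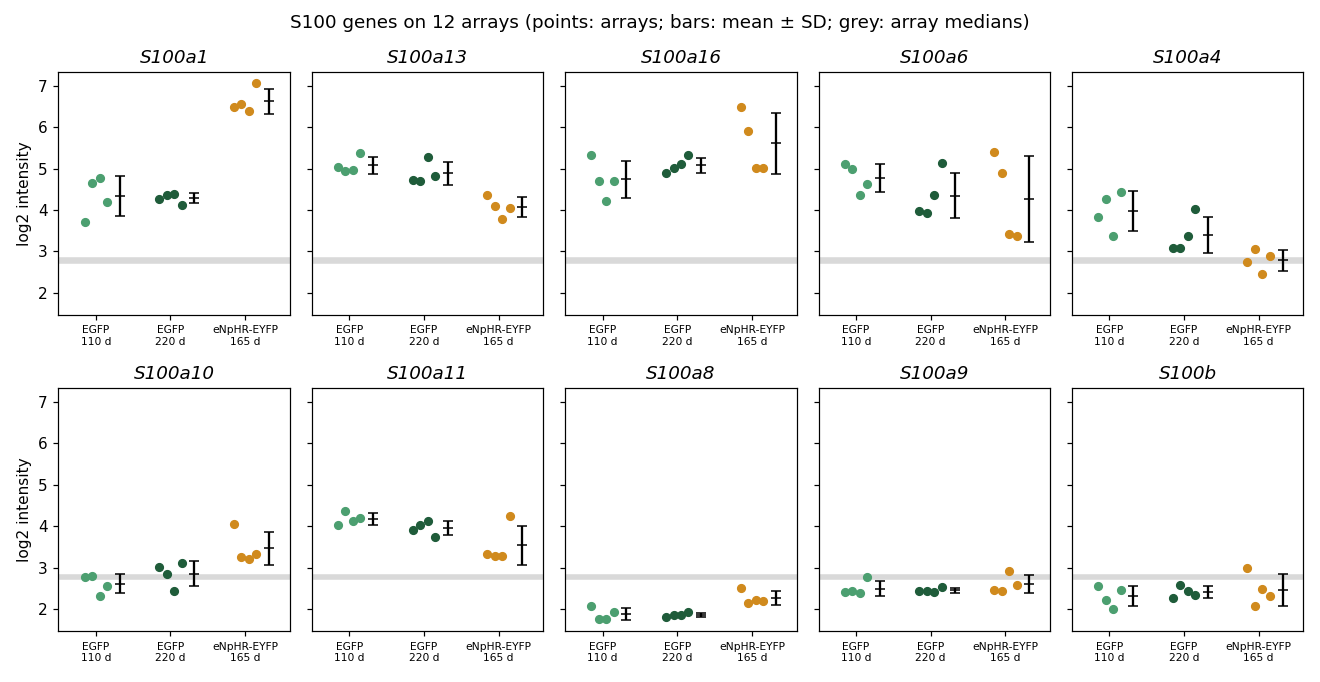
Each panel shows 1 of the 10 genes, with the log2 intensity of its brightest one-gene probe on the 12 arrays (points) and the mean ± SD of each group of 4 (bars). The grey band is the range of the array medians, 2.72 to 2.83. S100a1 stands apart between the constructs by 1.63, while S100a8 lies below the band on every array.

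Over the 10 genes, limma with Benjamini-Hochberg adjustment over all 34615 probes called 3 higher with eNpHR-EYFP (S100a1, S100a8, S100a10) and 3 lower (S100a4, S100a11, S100a13). Among all 19902 genes 33.1% were called, 23.0% higher and 10.1% lower, and among all probes 27.9%, 18.7% higher and 9.25% lower. The groups did not overlap for 3 members higher and 2 lower, where the shares of all genes were 14.2% and 6.15%. The median log2 difference of the 10 genes was 0.11 and that of all genes 0.07. Since the list was chosen with this comparison in view, nothing is read from these counts. S100a11 was among the genes counted in 8 of 20 alternative settings. Its other probe was not called as fitted (0.29, adjusted p by limma = 0.0543). S100a16, not counted as fitted, was past the threshold in 2 of 20 alternative settings. These were without eNpHR-EYFP replicate 3 and without replicate 4, with a difference of 0.89 in each, so its call turned on single arrays.

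Between 110 and 220 days within EGFP, 0 of the 10 genes passed. No probe on the array did (0% called), with 2331 of 34615 at an unadjusted p under 0.05. The age groups overlapped for all 10 genes, where 2.32% of all genes were higher and 1.55% lower without overlap. S100a4 was the nearest, falling short with a log2 difference of -0.59 ± 0.26 (SE, n = 4 against 4), an unadjusted limma p of 0.0416 and an adjusted p of 0.732. Its 95% confidence interval ran from -1.15 to -0.03. For S100a1 the difference was -0.05 ± 0.22 with an interval of -0.52 to 0.42. Differences of the other 8 genes ran from -0.42 for S100a6 to 0.34 for S100a16, with adjusted p from 0.871 to 0.984. Since eNpHR-EYFP was measured at 165 days, an age course that is not linear was not tested. At 165 days S100a4 stood below the older EGFP group.

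**Figure D4:**
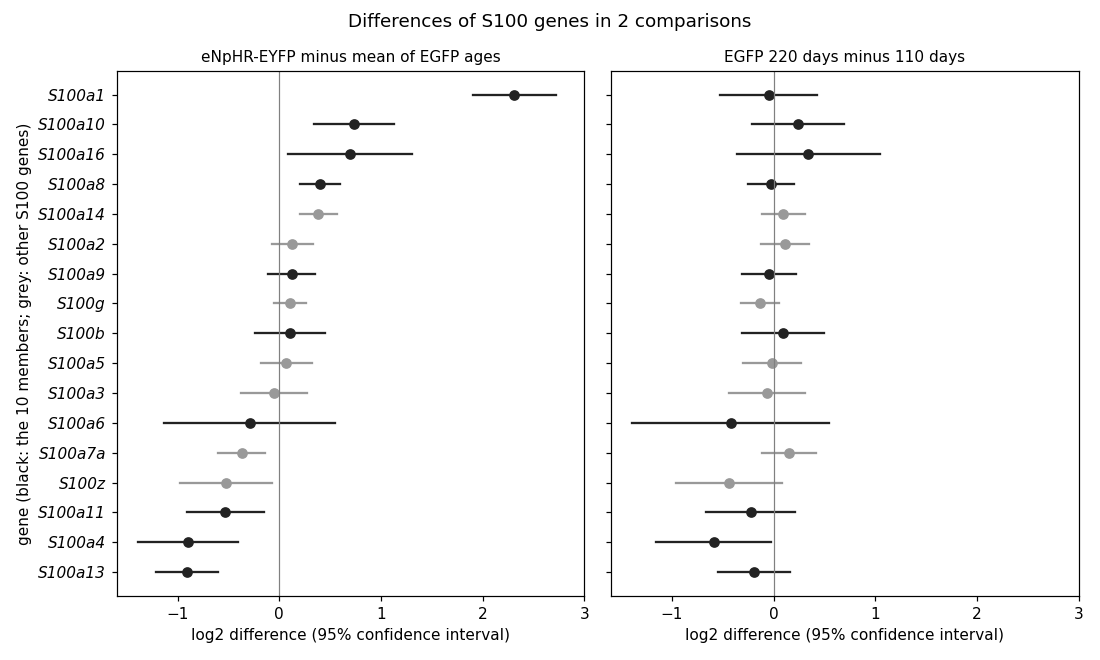
Log2 differences with 95% confidence intervals from limma are plotted for the 10 genes (black) and 7 other S100 genes (grey), between constructs on the left and between the EGFP ages on the right. S100a1 is at 2.31 on the left and at -0.05 on the right. On the right the interval of S100a4, from -1.15 to -0.03, is the only one that does not cover 0.

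Of the other S100 genes searched for, 7 had a probe, and these were not used in choosing the 10. S100a14, which lies next to S100a13 on the other side from S100a1 and is known from epithelia, rose by 0.38 ± 0.08 (limma adjusted p = 0.00512, n = 4 against 8). It was dim on 11 of 12 arrays, at 2.14 to 2.49 on the EGFP arrays and 2.58 to 2.79 with eNpHR-EYFP. S100a7a, of skin, fell by 0.37 ± 0.11 (adjusted p = 0.0215 by limma), from 3.26 to 3.82 on the EGFP arrays to 2.93 to 3.22. Its call ended without eNpHR-EYFP replicate 1 (-0.30, adjusted p = 0.0764) and without the 2 arrays lowest in Arr3 (-0.32, adjusted p = 0.0552), in a range of 0.015 to 0.0764 over its alternatives. S100a2, S100a3, S100a5, S100g and S100z did not pass, with differences of 0.13, -0.05, 0.07, 0.11 and -0.52. In all 1 of 7 rose and 1 fell, near the shares of all genes called higher (23.0%) and lower (10.1%). In RefSeq 15 S100 genes, 9 of the 10 members among them, lie on the same chromosome in mouse, most of them side by side, and S100b lies elsewhere. Along that stretch S100a1 was higher, S100a13 lower and S100a14 higher with eNpHR-EYFP in 3 adjacent genes. The next genes, S100a16 (0.69) and then S100a3 (-0.05), had overlapping groups and did not pass, so no pattern is drawn from this order.

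Proteins that S100 dimers bind were followed as a separate list. Of 47 measured partner and receptor genes, 14 rose and 2 fell with eNpHR-EYFP and 31 did not pass. This is near the share called among all genes (33.1%, with 23.0% higher and 10.1% lower). The median log2 difference was 0.11 against 0.07 for all genes. After quantile normalization 6 rose and 2 fell, without the 2 arrays lowest in Arr3 12 rose and 0 fell, and without eNpHR-EYFP replicate 2 or 3 it was 9 and 0 in each case. Cacybp, the binding partner of S100a6, rose from 6.65 ± 0.07 at 110 days and 6.70 ± 0.06 at 220 days to 7.70 ± 0.22 (SD, n = 4 each), and Sugt1, a cochaperone that also binds S100a6, rose by 0.71 ± 0.14 (SE). Htr1b, the serotonin receptor that S100a10 carries, rose from 2.58 ± 0.16 and 2.57 ± 0.09 to 3.63 ± 0.62 (SD, n = 4 each), all 4 eNpHR-EYFP arrays lying above all EGFP arrays. Its probe was dim on all 8 EGFP arrays, so the size of that difference is uncertain. Capzb, of the actin capping protein, rose by 0.79 ± 0.13 and the phagocyte oxidase gene Cybb by 0.54 ± 0.11 from a dim level. Their adjusted p by limma ran from 2.22e-05 for Cacybp to 0.00324 for Sugt1, and all 5 calls held in each alternative run for them. Quantile normalization lowered the difference of Cacybp to 0.52 and that of Capzb to 0.36 (adjusted p by limma = 0.0454, within a range of 0.000225 to 0.0454). The immunophilin gene Fkbp4 rose by 0.59 ± 0.11, but after quantile normalization its difference was 0.08 (adjusted p = 0.575, within a range of 0.00104 to 0.575).

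Of the receptors of released S100 proteins, Ager, which encodes RAGE, rose by 0.35 ± 0.10 (limma adjusted p = 0.0231, n = 4 against 8), with overlapping groups at 3.23 to 3.71 on the EGFP arrays and 3.61 to 3.94 with eNpHR-EYFP. It was no longer called under quantile normalization (0.26, adjusted p = 0.0797) and without eNpHR-EYFP replicate 2 (0.32, adjusted p = 0.0669), 3 (0.34, 0.0609) or 4 (0.31, 0.0635), in a range of 0.0134 to 0.0797. Tlr4 was dim and differed by -0.14 ± 0.12 (adjusted p = 0.418 by limma). Anxa2, the partner of S100a10, differed by 0.34 ± 0.15 (0.122), Anxa1, that of S100a11, by -0.33 ± 0.18 (0.199), and Fgf1, whose release S100a13 serves, by -0.02 ± 0.09 (0.91), none of which passed. The galectin gene Lgals3 fell by 0.48 ± 0.15 and Anxa6 by 0.31 ± 0.10 (adjusted p by limma = 0.0368 and 0.0426), calls that held in 9 and 7 of 19 alternatives, respectively.

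Other EF-hand genes, which hold calcium by the same motif outside the S100 family, were followed too. Of 40 measured, 15 rose, 4 fell and 21 did not pass, with a median log2 difference of 0.33 against 0.07 for all genes. Among all genes 33.1% were called, 23.0% higher and 10.1% lower. After quantile normalization 9 rose and 5 fell, and without the 2 arrays lowest in Arr3 12 rose and 3 fell. Calb1, the calcium buffer of horizontal and amacrine cells, rose by 2.20 ± 0.38 (SE, n = 4 against 8), from 1.96 to 2.94 on the EGFP arrays, where it was dim on 6 of 8, to 3.72 to 6.05. Amacrine, horizontal and ganglion cell markers, Calb1 among them, had a summed intensity of 349 to 467 at 110 days, 428 to 715 at 220 days and 436 to 719.6 with eNpHR-EYFP over 20 genes, of which 1 was dim on all arrays. Of these 8 rose, 1 fell and 11 did not pass, with a median log2 difference of 0.46, and 4 to 10 rose when any 1 array was left out (4 without eNpHR-EYFP replicate 1, 5 without replicate 3 of that group, of 110 days or without replicate 4 of 220 days). Their part in the result was not tested. The sensor genes Hpcal1 (1.03 ± 0.15), Cabp1 (1.34 ± 0.24) and Cabp2 (0.96 ± 0.15), the centrin gene Cetn3 (0.96 ± 0.13) and Sri (0.96 ± 0.19), which encodes sorcin, also rose. Under quantile normalization the difference of Cetn3 was 0.45, and Sri was not called (0.45, adjusted p by limma = 0.129, range 0.000694 to 0.129). Calu, which encodes the calumenin of the secretory pathway, fell by 0.62 ± 0.09, Hpcal4 by 0.45 ± 0.09, the grancalcin gene Gca by 0.74 ± 0.15 and Cabp5, of rod bipolar and cone bipolar cells, by 0.92 ± 0.32. Calu and Hpcal4 were dim on all 4 eNpHR-EYFP arrays. Adjusted p by limma of these 10 genes ran from 0.000336 for Cetn3 to 0.0493 for Cabp5, and the Cabp5 call held in 6 of 19 alternatives. Between the EGFP ages 0 of the 40 passed.

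To place single members, the genes whose deviations from the group means over the 12 arrays were most like theirs were taken from 9965 genes at or above the median level. For S100a1 these were Rps28 (Pearson r = 0.915), Pde8a (0.894) and Dctpp1 (0.893). For S100a16 they were Popdc3 (0.969), Plaat3 (0.959) and Mlc1 (0.953), and for S100a6 Itm2a (0.969), Iqcf1 (0.949) and Ppp1r3c (0.945). Those of S100a13 were Mmel1 (0.924), Fam234b (0.914) and Ldhd (0.897), those of S100a4 Slc26a11 (0.919), Nacc2 (0.907) and Dach1 (0.897), and those of S100a10 Bdh2 (0.933), Mmp2 (0.932) and Ccdc71l (0.918). All points share arrays and their RNA input, and each is the highest of many, so they are descriptions.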

How the data were processed

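RNA of sorted cones was hybridised to 12 arrays in 3 groups of 4. The authors deposited 1 linear intensity per probe and array, made with RMA and affy per the submitters' processing notes; their versions, the genome build and which arrays were normalized together are not given in the sources used here. As a method, RMA corrects background, normalizes and summarises probes. Values were put on log2 with no pseudocount and no filter.

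The EGFP columns held 31 fewer values than the others, and from data row 13591 at the latest their values stood 3 to 31 lines from their probes. They were realigned to the eNpHR-EYFP profile by a forward-backward algorithm (t distribution, 3 degrees of freedom, scale 0.25, lost-line probability 0.001, posterior at least 0.999). The algorithm was tested on simulated losses among the eNpHR-EYFP arrays only, which correlated with each other at a median of 0.965. It moved 21031 values, left out 114 and gave 34615 probes. Across probes, EGFP arrays correlated with eNpHR-EYFP arrays at a median of 0.421 before and 0.944 after. Since the alignment seeks likeness to the eNpHR-EYFP arrays, part of this rise is built in, and it is no separate test of the placement. Of the 10 genes, 9 were moved, and S100b stood in place.

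Probes were named from the platform annotation (21640 with 1 gene, 1321 with several, 11799 with none). The test was limma 3.58.1 (R 4.3.3), in 1 model of 3 groups and with Benjamini-Hochberg adjustment over all probes at 0.05. Deviations from group means were related by Pearson and Spearman correlation, with all 13824 exact permutations within groups. Promoter sequences are RefSeq's for GRCm38.p6. Limma p-values set a difference against the spread between arrays of a group, and permutation p-values set a correlation against reorderings within groups. Since the number of animals behind each sample is not given, neither speaks for the spread between animals. Alternatives were quantile normalization, median centring, a trended and robust prior, a filter at the median level, the replicate number as a block, array weights, the mean of a gene's probes, a fit of the EGFP groups alone and leaving out each array; leaving out the 2 arrays lowest in Arr3 was added after seeing the data. Members and lists were chosen with earlier results of these data known. Named genes are the 10 members, the other measured S100 genes, up to 6 partners and EF-hand genes in each direction with the smallest adjusted p, 6 fixed partners, bright markers, and the 3 genes most like a member.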

Additional observations from a re-analysis of the deposited data

Results flagged for a closer look

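Among 30 groups of 4 arrays, those of the 10 genes, 3 held an array far from the others by Dixon's criterion on the gap to the nearest array over the range; chance gives about 1 in 20 groups. S100a10 stood at 4.06 on eNpHR-EYFP replicate 1, against 3.22 to 3.32 on the other 3 arrays of that group. S100a11, by its brighter probe, stood at 4.25 on eNpHR-EYFP replicate 4, against 3.28 to 3.34. S100a9 stood at 2.77 on replicate 4 of 110 days, against 2.38 to 2.43.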

How the results depend on the processing

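Between constructs, differences of S100a1 (1.94 to 2.39), S100a13 (-1.12 to -0.81), S100a4 (-1.0 to -0.79) and S100a10 (0.53 to 0.81) kept their sign in all 20 alternatives run, and that of S100a8 (0.32 to 0.46) in the 19 that kept its probe. These values chose the family and are given as a description. Without 1 array 7749 to 9468 probes were called, against 9659. Quantile normalization gave 4364 higher and 4118 lower probes in place of 6456 and 3203.

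Between the ages no member passed in any alternative run. The count of probes, 0 as fitted, was 1 with the EGFP groups alone and without the 2 arrays lowest in Arr3, 0 to 1 without 1 array, and 2 when the probes of each gene were averaged. Small age differences changed sign: S100a1 was 0.0078 with array weights and -0.25 to 0.0943 without 1 array, S100a8 was 0.008 after quantile normalization, 0.0071 after median centring, 0.0918 without the arrays lowest in Arr3 and -0.0633 to 0.0383 without 1 array, S100a9 was 0.0463 without the arrays lowest in Arr3 and -0.0828 to 0.0462 without 1 array, and S100b was -0.0097 to 0.18 without 1 array. Over all alternatives run, the age difference of S100a1 ran from -0.42 to 0.0943 and that of S100b from -0.0097 to 0.29. The cause of these changes was not tested.

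Same-numbered arrays of different groups correlated at -0.04 to 0.14 in their deviations from the group means, and differently numbered ones at -0.18 to 0.12. The labels state no pairing, and correlations this few and small cannot decide whether the numbers pair the samples. With the replicate number as a block 9258 probes were called between constructs in place of 9659, and 0 of the 10 genes passed between the ages. A filter at the median level left out S100a8, S100a9 and S100b. Dim probes limit what could be seen for these 3 genes.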
